A study of Mus musculus with 15 samples.

Results

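The genes described here are 10 genes of fat storage and lipoprotein transport, Plin2, Plin3, Cidec, Dgat1, Dgat2, Pnpla2, Mgll, Apob, Mttp and Apoc2, out of 18194 genes with a probe set that the array annotation ties to 1 symbol. They are covered by 18 probe sets, all taken by symbol. The genes were selected on their function and on the measured log2 difference between the diet groups, which was already known, so that difference is described below and supports nothing. Expression was measured with 1 Affymetrix mouse array per animal in scrapings of the colon, in 9 male C57BL/6 mice fed heme at 0.5 umol per g of diet and in 6 males fed that diet without heme. Both groups were 11 weeks old and ate for 14 days a diet poor in calcium and rich in fat, which gave 40% of the energy, so the controls were on this fat-rich diet too. Heme is the iron-containing pigment of hemoglobin and myoglobin, and C57BL/6 is an inbred laboratory strain. A scraping holds epithelium with some of the tissue beneath, so fewer cells of a type and less RNA per cell cannot be told apart in these values.

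Cells store surplus fatty acids as triglyceride in lipid droplets, which bud from the endoplasmic reticulum and carry a coat of perilipins and CIDE proteins. Acyltransferases build the triglyceride, and a chain of lipases takes it apart again. Absorptive cells of the gut can instead load triglyceride onto apolipoprotein B with the help of the microsomal transfer protein and secrete it as lipoprotein particles, a route best known from the small intestine. Many of these genes are known targets of the fatty acid sensing PPAR nuclear receptors.

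The values are log2 expression per probe set. Array medians lay between 3.11 and 3.24, and precision is limited by how many arrays there are. The floor was a signal of 20, which is 4.32 as log2, and the 9257 genes over it on at least 6 arrays were tested. Hmox1, which degrades heme to biliverdin, was at 7.90 to 10.11 in heme mice and at 3.06 to 3.87 in controls, which were all under the floor, so no mouse went against its diet label. Epithelial and colonocyte markers were high in every mouse, Epcam (called lower with heme) averaging 13.56 in heme and 13.75 in control mice and Car1, of colonocytes, 14.50 in heme and 14.40 in control mice. Of 5 epithelial markers 2 were called higher and 1 lower, and of 5 colonocyte markers 1 was called higher (Aqp8, a water channel, by 1.30 ± 0.14) and 2 lower. Of the 6 smooth muscle markers 4 were tested and all 4 were lower with heme, and 4 of 5 goblet cell markers and 3 of 5 enteroendocrine markers were lower. Of 5 lymphocyte markers 1 was tested, Ptprc, and it was called lower (-1.04 ± 0.26). Among all tested genes 27.2% were called higher and 26.4% lower. The part of these marker shifts in the results below was not tested. Control mouse 2 was rich in stromal transcripts, with Dcn at 10.41 against 5.20 to 7.23 in the other controls. Hoxb13, a position gene of the distal colon, was lowest in control mouse 4 at 3.77 and next lowest in control mouse 1 at 9.72, against 10.82 to 11.78 in the other controls and 10.09 to 11.17 in heme mice.

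RefSeq promoter windows (build GRCm38.p6, 250 bases before to 50 after the start of the gene) were at hand for 8 of the 10 genes, in 10 windows because Cidec and Mgll have more than 1 start. Those of Apoc2, Cidec, Mgll and Plin2, which belong to the genes that differed without overlap between the diets, are shown 5′ to 3′. For Cidec and Mgll 1 of 2 windows is shown, and neither of the windows left out holds a match to any motif searched. Capitals mark matches, on either strand, to the nuclear receptor hexamer AGGTCA, to the E-box CACGTG and to CCAAT.
Apoc2 (chr7:19677892-19678191, minus strand): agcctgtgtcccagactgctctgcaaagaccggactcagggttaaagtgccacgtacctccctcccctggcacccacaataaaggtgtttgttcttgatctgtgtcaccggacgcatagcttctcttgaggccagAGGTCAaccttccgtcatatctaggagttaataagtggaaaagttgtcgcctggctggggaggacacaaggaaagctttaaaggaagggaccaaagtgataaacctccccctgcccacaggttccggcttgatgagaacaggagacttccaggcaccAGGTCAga
Cidec (chr6:113435711-113436010, minus strand): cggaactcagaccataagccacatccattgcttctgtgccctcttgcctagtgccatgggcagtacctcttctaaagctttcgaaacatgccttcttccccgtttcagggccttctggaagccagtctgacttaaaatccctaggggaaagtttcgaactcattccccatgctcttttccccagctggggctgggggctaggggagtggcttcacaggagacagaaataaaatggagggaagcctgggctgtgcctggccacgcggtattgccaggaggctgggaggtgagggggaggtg
Mgll (chr6:88724162-88724461, plus strand): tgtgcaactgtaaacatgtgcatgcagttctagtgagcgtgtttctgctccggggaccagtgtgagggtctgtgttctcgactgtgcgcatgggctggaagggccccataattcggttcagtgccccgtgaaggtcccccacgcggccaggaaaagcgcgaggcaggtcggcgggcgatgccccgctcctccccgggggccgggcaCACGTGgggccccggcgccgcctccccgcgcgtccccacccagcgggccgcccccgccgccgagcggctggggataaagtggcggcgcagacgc
Plin2 (chr4:86670010-86670309, minus strand): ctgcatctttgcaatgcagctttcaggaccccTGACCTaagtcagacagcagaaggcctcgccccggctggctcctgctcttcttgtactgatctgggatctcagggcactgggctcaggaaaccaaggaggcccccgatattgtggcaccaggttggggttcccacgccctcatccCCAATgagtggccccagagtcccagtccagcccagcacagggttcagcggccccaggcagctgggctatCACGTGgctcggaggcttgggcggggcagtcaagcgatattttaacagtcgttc
The hexamer AGGTCA was in the windows of 2 of the 8 genes, Apoc2 and Plin2, against 16.3% of all 32851 windows. Counted from the gene start, its first base lay at -115 and again at 42 in Apoc2, and at -218 in Plin2, there on the opposite strand. The pair of hexamers with 1 base between them that PPAR receptors are known to bind (AGGTCA, any base, AGGTCA) was in none of the 10 windows and in 0.0396% of all windows. The antioxidant response core TGACNNNGC was in none of the 10 windows and in 12.4% of all, and the E-box was in the windows of 2 genes, Mgll and Plin2, and in 7.15% of all. TATAAA was found in 1 gene, Apob (13.6% of all windows), and CCAAT in Plin2 and Plin3 (37.4% of all windows). All motifs were searched on both strands, and the shorter hexamer also matches inside the pair. These matches describe the letters of the windows only.

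**Figure D1:**
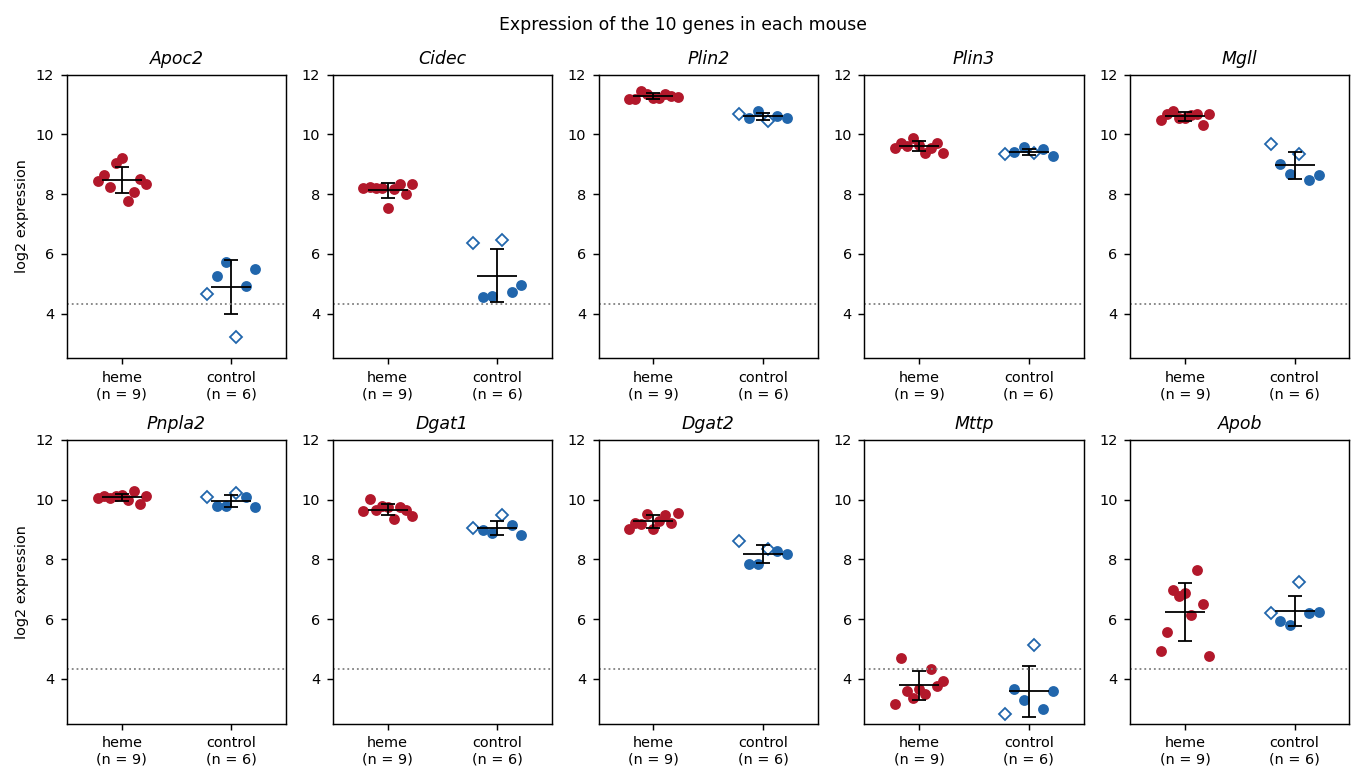
Log2 expression (vertical axis) of the 10 genes in each of the 9 heme mice (red) and 6 control mice (blue), with the mean and SD of each group in black. Open diamonds are control mice 1 and 4, and the dotted line is the signal floor of 4.32. Apoc2, Cidec, Plin2, Mgll and Dgat2 do not overlap between the groups, and Mttp lies mostly under the floor.

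Of the 10 genes 9 were over the floor and tested, and 6 were called higher in heme mice, Apoc2, Cidec, Mgll, Dgat2, Plin2 and Dgat1 (limma across all tested genes, Benjamini-Hochberg adjusted p under 0.05). None was called lower, and Plin3, Pnpla2 and Apob were not called. In the same fit 53.6% of all tested genes were called, 27.2% higher and 26.4% lower. In 5 of the 9 every heme mouse lay above every control, which held for 11.2% of all tested genes, and in none did every heme mouse lie below every control, which held for 8.93%. The median difference, heme minus control, of the 9 tested genes was 0.67 on the log2 scale, and that of all tested genes was -0.01. Since the genes were picked with this comparison known, nothing is read from these counts.

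The droplet coat was represented by both perilipins that most cell types make and by the droplet fusion protein Cidec. Plin2 (perilipin 2, also called adipophilin), which coats droplets and is degraded when it is not bound to fat, ran from 11.18 to 11.46 in heme mice with a median of 11.26, against 10.46 to 10.78 with a median of 10.58 in controls. The groups were apart, and mice of the same diet were close to each other, with an SD of 0.10 in heme and 0.11 in control mice. The difference was 0.67 ± 0.06 (SE), or 1.59-fold, and 6.3% of tested genes had a higher one. Plin3 (also called TIP47), a perilipin that moves from the cytosol onto small new droplets, ran from 9.37 to 9.88 in heme mice (median 9.62), against 9.27 to 9.58 in controls (median 9.39). Here the groups overlapped, with 5 of 9 heme mice above all controls, and the difference was 0.18 ± 0.08. Plin3 was not called over all mice, but it was called without control mouse 3 (0.22), without heme mouse 6 (0.21) and without heme mouse 9 (0.21). With all mice it was called in 4 alternatives, array weights (0.19), median centring (0.22), a signal floor of 100 (0.18) and a trended, robust variance (0.18). In the other 20 of 27 alternatives Plin3 was not called, and over all 27 its adjusted p ran from 0.0241 to 0.166 (limma).

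Cidec (also called FSP27), which gathers at the contact between droplets and lets the smaller empty into the larger, was the droplet coat gene with the largest difference. It ran from 7.52 to 8.34 in heme mice with a median of 8.20, against 4.57 to 6.45 in controls with a median of 4.83. Heme mice were close together except for mouse 5, which was the lowest at 7.52, the other 8 lying between 8.01 and 8.34. The controls fell into a high pair, mouse 1 at 6.36 and mouse 4 at 6.45, and the other 4 at 4.57 to 4.94. The lowest heme mouse was still above the highest control. The difference was 2.86 ± 0.28 (SE), or 7.27-fold, and 0.216% of tested genes had a higher one. Without control mice 1 and 4, the high pair left out after seeing the data, the difference of Cidec was 3.43.

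Control mice 1 and 4, the high pair for Cidec, were the lowest of the controls in all 3 distal position genes measured. Hoxa13 was at 4.98 and 4.05 in these mice and at 5.88 to 6.81 in the other controls, and Hoxd13 was at 5.74 and 1.74 against 7.43 to 8.83. In heme mice Hoxa13 was at 6.06 to 8.05 and Hoxd13 at 6.62 to 7.89. None of the 3 position genes was called between the diets. The differences were 0.92 ± 0.92 (SE) for Hoxb13, 0.67 ± 0.78 for Hoxd13 and 0.93 ± 0.41 for Hoxa13 (adjusted p = 0.0685, limma). With SEs this wide, the missing calls do not show that the groups were matched in position. The part of colon position in the Cidec values was not tested.

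Cidec, Dgat2, Pnpla2 and Mgll are also abundant in fat cells, and the colons were cleared of mesenteric fat before scraping. Of the 7 fat cell markers measured, Lep, Retn, Plin4, Cidea and Lipe were under the floor in every mouse. Adipoq, the fat cell hormone adiponectin, ran from 2.60 to 7.67 in heme mice and from 3.19 to 7.75 in controls, and Fabp4 from 6.63 to 10.43 in heme mice and from 7.94 to 10.01 in controls. Neither was called (differences of -0.36 ± 0.85 and -0.17 ± 0.52, adjusted p = 0.741 and 0.803, limma). Control mouse 4, of the high Cidec pair, was the highest control in both Adipoq (7.75) and Fabp4 (10.01). Control mouse 1, the other of the pair, was at 5.17 and 8.73, within the range of the other controls. The summed linear signal of the 7 markers was 132 to 1628 in heme and 286 to 1280 in control mice, and the groups overlapped. The part of fat cells in the values of these genes was not tested. Of the macrophage markers 4 of 7 were tested and none was called, with a summed signal of 461 to 958 in heme and 406 to 2578 in control mice.

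The last step of triglyceride synthesis is made by DGAT1 and DGAT2, enzymes of unrelated sequence that join a fatty acyl chain to diacylglycerol. Dgat2 ran from 9.00 to 9.54 in heme mice (median 9.23), against 7.85 to 8.61 in controls (median 8.23). The groups did not overlap, and the highest controls were again mouse 1 at 8.61 and mouse 4 at 8.35. The difference was 1.09 ± 0.12 (SE), or 2.13-fold, and the other Dgat2 probe set gave 1.27 ± 0.15. Dgat1, the enzyme linked in the gut to absorbed fat, ran from 9.36 to 10.01 in heme mice (median 9.65), against 8.83 to 9.47 in controls (median 9.02). All but heme mice 6 and 9 lay above every control, and the highest control was mouse 4. The difference of Dgat1 was 0.60 ± 0.10. Averaged with its other probe set, which was under the floor in all mice, the Dgat1 difference was 0.32.

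Triglyceride is taken apart in steps, the first by PNPLA2 (adipose triglyceride lipase) and the last, the release of the final fatty acid from monoacylglycerol, by MGLL. Mgll, which also breaks down the endocannabinoid 2-arachidonoylglycerol, ran from 10.32 to 10.78 in heme mice (median 10.65), against 8.46 to 9.66 in controls (median 8.84). The groups were apart, and among the controls mouse 1 was the highest at 9.66 and mouse 4 the next at 9.33. The difference was 1.63 ± 0.15 (SE), or 3.10-fold. Of the other Mgll probe sets over the floor, 1 gave a close 1.65 ± 0.15 and 1 a larger 2.35 ± 0.24, with controls from 7.09 to 8.94 and heme mice from 9.99 to 10.70. Pnpla2 differed little, at 9.86 to 10.28 in heme mice (median 10.11), against 9.76 to 10.22 in controls (median 9.94). The groups overlapped, only heme mouse 7 lying above all controls. The difference of Pnpla2 was 0.13 ± 0.08. Without control mice 1 (10.07) and 4 (10.22, the highest control) it was 0.22 and was called. These 2 mice were chosen after seeing the data, and leaving out high controls raises the difference by itself. In the other 26 of 27 alternatives Pnpla2 was not called, with a difference of 0.058 for the mean of its probe sets.

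**Figure D2:**
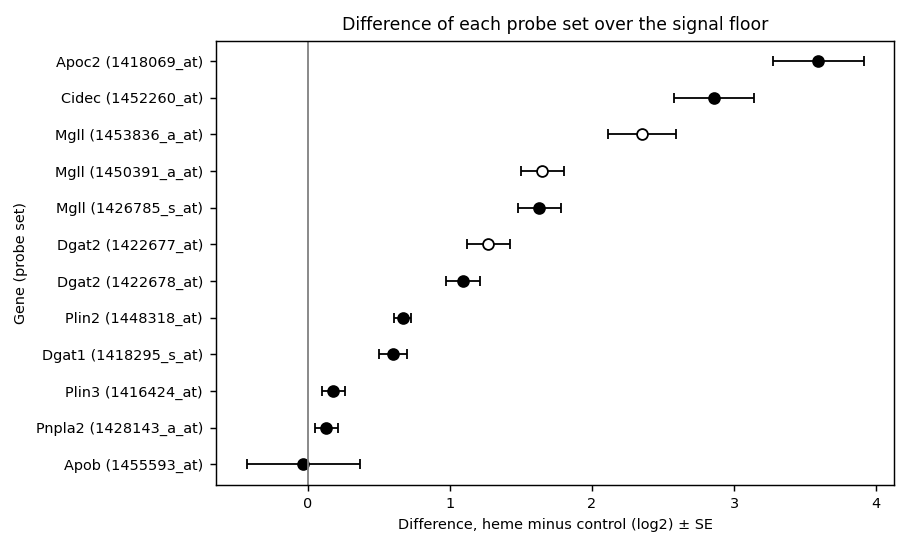
Difference between heme and control mice on the log2 scale (horizontal axis), with its SE, for the 12 probe sets of these genes that were over the signal floor. Filled points are the probe set that stands for its gene, open points other probe sets of the same gene. The probe sets of Mgll lie between 1.63 and 2.35 and those of Dgat2 at 1.09 and 1.27, so the order of the genes is the same with either.

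Of the proteins that build a lipoprotein particle, Apob was not called and Mttp was too low to be tested. Apob, the structural protein of chylomicrons and very low density lipoprotein, ran from 4.76 to 7.63 in heme mice (median 6.49), against 5.79 to 7.24 in controls (median 6.20). Heme mice lay on both sides of the controls, 3 below all of them and 1 above, and the SD was 0.97 in heme and 0.51 in control mice. The difference of Apob was -0.03 ± 0.40 (SE), and its sign turned when single mice were left out (-0.21 to 0.16). Mttp, the transfer protein that loads Apob with lipid, was not tested, since only heme mice 2 and 7 (4.69 and 4.34) and control mouse 4 (5.15) were over the floor. Its whole range was 3.17 to 4.69 in heme mice (median 3.66) and 2.82 to 5.15 in controls (median 3.44). The highest control of both Apob and Mttp was mouse 4. Apoa1, the main protein of high density lipoprotein, was likewise at 9.94 in control mouse 4 and 7.27 in control mouse 2, and under the floor in all other mice of either diet.

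Apoc2, the small exchangeable apolipoprotein that activates lipoprotein lipase, had the largest difference of the 10 genes and the 9th highest of all 9257 tested. It ran from 7.77 to 9.19 in heme mice with a median of 8.45, against 3.20 to 5.74 in controls with a median of 5.09. The lowest control was mouse 4, under the floor at 3.20, and all 9 heme mice lay above all 6 controls. The difference was 3.59 ± 0.32 (SE), or 12.1-fold, and 3.26 without control mouse 4. Apoc2 lies in a cluster of apolipoprotein genes, where its next neighbours on 1 side are Apoc4, Apoc1 and Apoe. Apoc4 averaged 2.36 in heme and 2.38 in control mice and Apoc1 2.81 in heme and 2.62 in control mice, under the floor in every mouse. Apoe, a lipoprotein ligand that macrophages also make in quantity, ran from 6.72 to 8.25 in heme mice and from 6.18 to 9.73 in controls. Its difference was 0.43 ± 0.45 and was not called (adjusted p = 0.441, limma). Apoe was called in 1 of 27 alternatives, without control mouse 2, the highest control at 9.73 (0.91, adjusted p = 0.0193, limma). That mouse was the one rich in stroma, and leaving out the highest control raises the difference by itself.

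Mice of the same diet did not vary alike across the 10 genes. In 7 of the 9 tested genes the SD was smaller in heme than in control mice. This was most marked in Cidec (0.25 in heme and 0.89 in control mice) and Mgll (0.14 and 0.46). Apob and Plin3 went the other way. The share of all tested genes with a smaller SD in heme mice was not worked out, so nothing is read from this count. After subtraction of the group means, the 36 pairs among the 9 genes had correlations of -0.76 to 0.80 over the 15 mice, with a median of 0.21. These correlations are descriptions, and the mice behind them differ in the position and stromal markers given above. Cidec and Mgll were the most alike (0.80), then Cidec and Dgat2 (0.72), and Apoc2 and Cidec the least (-0.76). Without control mice 1 and 4 the values were 0.16 for Cidec and Mgll, 0.65 for Cidec and Dgat2, and -0.52 for Apoc2 and Cidec. The value for Cidec and Mgll thus rests largely on control mice 1 and 4. Heme mouse 5, the lowest in Cidec, was the highest in Apoc2 at 9.19.

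**Figure D3:**
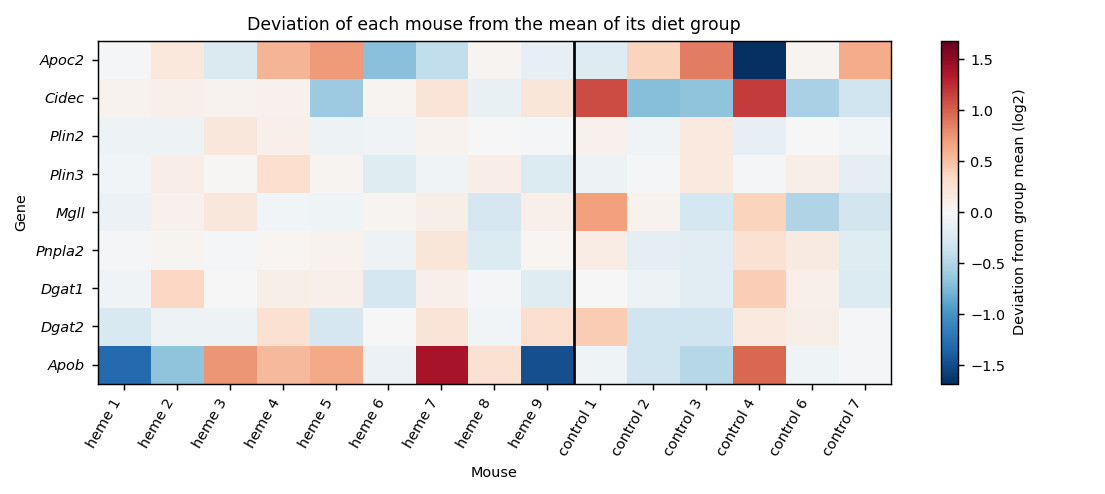
Deviation of each mouse (columns) from the mean of its diet group, on the log2 scale, for the 9 tested genes (rows), with heme mice left of the black line and controls right of it. Control mice 1 and 4 are high in Cidec (1.09 and 1.18) and Mgll (0.69 and 0.37), control mouse 4 is low in Apoc2 (-1.68), and Apob spreads from -1.47 to 1.39 among heme mice.

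Likeness was also sought among all tested genes, by the same correlation of deviations over the 15 mice. For Cidec the nearest genes were Lpin2, a phosphatidate phosphatase of triglyceride synthesis (0.92), Cpn1 (0.90) and Stard5 (0.89). For Mgll they were Pdk4, the kinase that turns off pyruvate dehydrogenase (0.87), Acaa1b, a peroxisomal thiolase (0.86), and Mideas (0.86). For Apob the first was Cdx2, the homeobox factor of intestinal identity (0.88), followed by Laptm4a (0.88) and Ing3 (0.85). Apoc2 was nearest to Tmem168 (0.95), Cyp2d13 (0.95) and Prkacb (0.92), and Plin3 to Apmap (0.95), Bcl10 (0.91) and Galnt1 (0.91). For Dgat2 they were Mgat4b (0.90), Stat6 (0.87) and Wnk2 (0.86), and for Dgat1 BC031181 (0.87), Sqor (0.87) and Psmf1 (0.86). Pnpla2 was nearest to B4galnt2 (0.85), Prkcz (0.84) and Nudt16 (0.82), and Plin2 to Mef2d (0.78), Dna2 (0.74) and Elp3 (0.73). Of these 27 neighbours 8 were found again without control mice 2 and 4 and heme mouse 6.

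The other genes of these routes were taken from 5 lists with 75 genes, drawn up by role with earlier results of these arrays known. Of them 68 had a probe set and 47 were tested, 24 higher, 5 lower and 18 not called, so 61.7% were called, against 53.6% of all tested genes. Their median difference was 0.17 on the log2 scale, against -0.01 for all tested genes. For the counts by list below, 27.2% of all tested genes were called higher and 26.4% lower. Every heme mouse lay above every control in 11.2% of all tested genes and below every control in 8.93%. Nothing is read from the list counts, since the lists were drawn up with earlier results known. Adjusted p-values below come from limma over all tested genes. The genes named are mostly those with the largest called differences of these lists, so their p-values are descriptions and support nothing.

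Of 10 other droplet proteins tested, 4 rose, 1 fell and 5 were not called. The median difference was 0.03. Hilpda, a droplet protein induced by hypoxia and fatty acids that inhibits PNPLA2, ran from 7.30 to 8.10 in heme mice (median 7.73), against 4.73 to 5.47 in controls (median 5.21). The groups did not overlap, and Hilpda rose by 2.60 ± 0.13 (SE, adjusted p = 2.17e-09), or 6.06-fold. The other changes were small. Fitm2, which helps droplets bud, rose by 0.33 ± 0.11 (adjusted p = 0.0209), Hsd17b11 by 0.30 ± 0.08 (1.03 ± 0.25 in another probe set) and Cideb, a CIDE protein of liver and gut, by 0.16 ± 0.06 (adjusted p = 0.0301, lost in 8 of 27 alternatives, among them without control mouse 2). Lpcat2, a lysophospholipid acyltransferase, fell by 0.31 ± 0.12 (adjusted p = 0.0422), a call lost in 14 of 27 alternatives with adjusted p from 0.0533 to 0.107. The count of droplet protein genes that rose was 2 without control mouse 3 and 2 without control mouse 7, in each case through Fitm2 and Cideb. The count that fell was 0 on leaving out any of control mice 3, 4, 6 and 7 and heme mice 2, 3, 5, 7 and 9. Plin4, Plin5, Cidea, Fitm1 and G0s2 were under the floor, and Plin1 was not analysed here.

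Triglyceride synthesis upstream of the DGAT enzymes had 7 of 13 tested genes higher, none lower and 6 not called. The median difference was 0.31. Gpat3, which makes lysophosphatidate from glycerol phosphate, ran from 8.36 to 9.24 in heme mice, against 6.79 to 7.89 in controls, and rose by 1.30 ± 0.16 (SE, adjusted p = 1.03e-05). Agpat2, the next acyltransferase, ran from 11.37 to 11.75 in heme mice, against 10.66 to 11.10 in controls, and rose by 0.72 ± 0.08 (adjusted p = 2.46e-06). Lpin2, which removes the phosphate to give diacylglycerol, ran from 9.92 to 10.48 in heme mice, against 8.92 to 9.88 in controls, and rose by 0.95 ± 0.15. None of these 3 overlapped between the diets, and in Lpin2 control mice 1 and 4 were the highest controls at 9.88 and 9.73. Mogat2, the monoacylglycerol acyltransferase by which gut cells rebuild absorbed fat, rose by 1.08 ± 0.22 (adjusted p = 0.000825) at a low level, 4.84 to 5.97 in heme mice, against 3.70 to 5.33 in controls. Lpin1, chosen after its values were seen, was not called at -0.44 ± 0.27, but was lower without control mouse 2 (-0.69, adjusted p = 0.017).

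Of 8 tested genes of lipolysis and lysosomal lipid breakdown 5 rose, none fell and 3 were not called. The median difference was 0.52. Abhd6, another monoacylglycerol lipase, ran from 10.88 to 11.19 in heme mice, against 9.87 to 10.49 in controls, and rose by 0.96 ± 0.09 (SE, adjusted p = 7.06e-07). Abhd5, the activator of PNPLA2, rose by 0.68 ± 0.07 without overlap (8.45 to 8.82 in heme mice, against 7.80 to 8.07 in controls), although another probe set of Abhd5 over the floor gave only 0.08 ± 0.10. Lipa, the lysosomal acid lipase, rose by 0.67 ± 0.11 and Aadac, a microsomal lipid hydrolase, by 0.53 ± 0.12. The carboxylesterase Ces1g rose by 0.52 ± 0.19 (adjusted p = 0.0277), a call lost in 4 of 27 alternatives (adjusted p from 0.0604 to 0.106), among them without control mouse 2. The carboxylesterase Ces1d (-0.29 ± 0.18) and the diacylglycerol lipases Dagla (-0.13 ± 0.10) and Daglb (-0.09 ± 0.12) were not called. Lipe, the hormone-sensitive lipase of fat cells, was under the floor in every mouse.

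**Figure D4:**
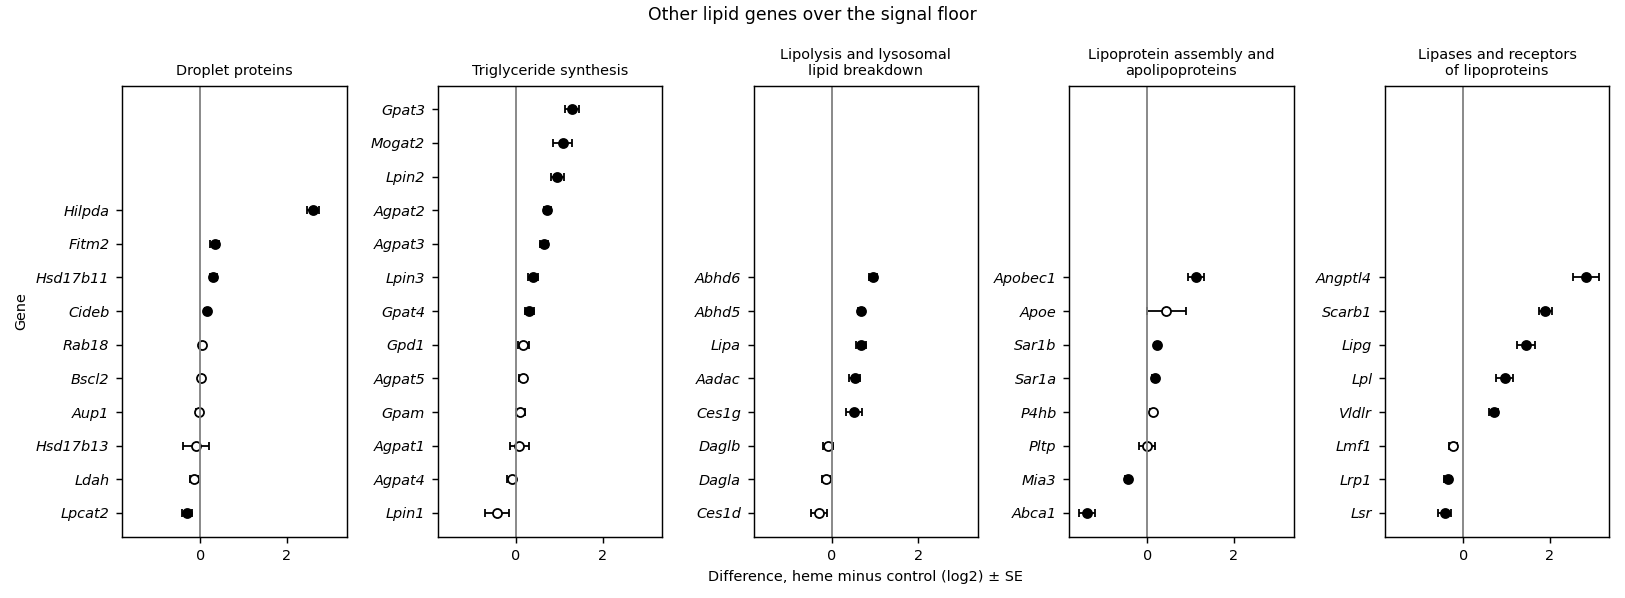
Difference between heme and control mice on the log2 scale with its SE for the 47 other lipid genes over the signal floor, by list. Filled points passed the adjusted p threshold of 0.05. Angptl4, Hilpda and Scarb1 stand out at 2.84, 2.60 and 1.90, and Abca1 is the lowest at -1.39.

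Of the genes of lipoprotein assembly and the exchangeable apolipoproteins, 17 in all, 8 were tested, 3 rose, 2 fell and 3 were not called. The median difference was 0.15. Apobec1, the enzyme that edits Apob messenger RNA so that the shorter protein is made, ran from 8.11 to 8.89 in heme mice, against 6.63 to 7.91 in controls, and rose by 1.12 ± 0.18 (SE, adjusted p = 0.000121). Sar1b, a small GTPase of the vesicles that carry chylomicrons, rose by 0.23 ± 0.06. Its paralog Sar1a rose by 0.17 ± 0.06 (adjusted p = 0.0351), a call lost in 13 of 27 alternatives (adjusted p from 0.0539 to 0.942), among them without control mouse 4 and with the mean of its probe sets (-0.01). Abca1, which loads cholesterol onto apolipoprotein A-I, ran from 5.05 to 6.36 in heme mice, against 6.76 to 7.44 in controls, and fell by 1.39 ± 0.18 (adjusted p = 1.93e-05). Mia3, a cargo receptor at the exit sites of the endoplasmic reticulum, fell by 0.46 ± 0.05, with all heme mice (10.39 to 10.57) below all controls (10.81 to 11.05). P4hb, the partner subunit of MTTP, was at 0.12 ± 0.05 and Pltp at -0.01 ± 0.18, both not called. P4hb was called higher in 5 of 27 alternatives (adjusted p from 0.0301 to 0.048, limma), among them without heme mouse 6 (0.14) and without control mice 2 and 4 and heme mouse 6 (0.17).

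Of 8 tested lipoprotein lipase and receptor genes 5 rose, 2 fell and 1 was not called. The median difference was 0.83. Angptl4, a secreted inhibitor of lipoprotein lipase and a known PPAR target, ran from 8.25 to 9.23 in heme mice with a median of 8.53, against 5.13 to 7.55 in controls with a median of 5.63. The highest control was mouse 1, the next reaching 5.86, and the groups did not overlap. Angptl4 rose by 2.84 ± 0.30 (SE, adjusted p = 2.58e-06), or 7.16-fold. Lpl itself, the lipase that APOC2 activates and ANGPTL4 inhibits, rose by 0.96 ± 0.20. It ran from 9.87 to 11.01 in heme mice, against 8.79 to 10.13 in controls, so the groups overlapped. The highest controls of Lpl were mouse 4 at 10.13 and mouse 1 at 9.70. Scarb1, the receptor for high density lipoprotein, ran from 8.25 to 8.91 in heme mice, against 6.08 to 7.01 in controls, and rose by 1.90 ± 0.14 (adjusted p = 9.41e-08). Lipg, the endothelial lipase, rose by 1.45 ± 0.21 and ran from 7.59 to 8.70 in heme mice, against 5.71 to 7.20 in controls. Lsr, a receptor of triglyceride-rich lipoproteins, fell by 0.43 ± 0.14, and Lrp1, a large endocytic receptor, by 0.36 ± 0.08. Lmf1, which matures the lipases, was at -0.23 ± 0.09 (adjusted p = 0.0504) and was called lower on leaving out control mouse 2, control mouse 7, heme mouse 1 or heme mouse 7, each by itself.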

How the data were processed

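RNA from colon scrapings of 15 mice was hybridised to 1 array per mouse, each mouse analysed on its own per the labels' protocols. The deposited log2 values came from GCRMA 2.22.0 per the submitters' processing notes, a method that corrects background, normalizes arrays and summarises probe sets. What else the authors did is not given in the sources used here. The annotation gave 1 symbol for 34958 of 45101 probe sets, several for 932 and no entry for 9211. For each gene, the probe set of highest mean over all arrays was used. Genes over a signal of 20 on at least 6 arrays were tested with limma 3.58.1 in R 4.3.3, heme minus control, with Benjamini-Hochberg adjustment over 9257 genes. The fit was tested on simulated data.

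The members and lists were chosen with earlier results of these data known. The genes named beside the 10 members were, in each list, the 4 with the largest called difference, those called against the majority, and those not called where fewer than 4 were, and for each tested member its 3 nearest genes. Cideb, Ces1g, Sar1a, Lpin1, Apoa1, Apoc1, Apoc4, the marker genes given and the genes under the floor were named after their values were seen. Alternatives were the floor, probe set handling, scaling, variance model, array weights, array number, the replicate number as a block, and leaving out mice. Control replicate 5 was not analysed here.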

Additional observations from a re-analysis of the deposited data

Results flagged for a closer look

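In 5 of 78 groups of values, 39 genes in each diet group, 1 mouse lay far from the others of its group by Dixon's test, and chance flags about 1 in 20. Cidec was at 7.52 in heme mouse 5, against a next lowest of 8.01. Control mouse 4 was high in Mttp at 5.15, the next highest control being at 3.65, and in Apob at 7.24, the next being at 6.24. Angptl4 was at 7.55 in control mouse 1, against a next highest of 5.86, and Dagla at 4.37 in heme mouse 9, against a next lowest of 4.69. Control mice 1 and 4 also had the lowest Hoxb13 of the controls, at 9.72 and 3.77, and the part of this in the values was not tested.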

How the results depend on the processing

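Over 27 alternatives Apoc2 (3.12 to 3.76), Cidec (2.72 to 3.43), Plin2 (0.63 to 0.71), Mgll (1.45 to 1.90), Dgat1 (0.32 to 0.72) and Dgat2 (1.02 to 1.24) kept their direction and call, and the count of members called was 6 or 7 higher and 0 lower. Apob, never called, changed sign with array weights (0.14), median centring (0.00082), quantile normalization (0.034), the replicate block (0.066), without control mice 1 and 4 (0.19, chosen after seeing the data) and without control mice 2 and 4 and heme mouse 6 (0.14), and it ran from -0.21 to 0.16 when single mice were left out. With each probe set tested on its own 4103 were higher and 3819 lower, which are counts of probe sets and not of genes. Among droplet proteins 7 rose with no filter, and 2 to 4 when single mice were left out. The count that fell was 0 with the mean of probe sets, median centring, quantile normalization, no filter or without control mice 1 and 4, 2 with each probe set tested, and 0 to 1 when single mice were left out. In triglyceride synthesis 1 gene fell with array weights and without control mice 2 and 4 and heme mouse 6, and 0 to 1 when single mice were left out. With the replicate block 1 lipase or receptor gene fell, Lsr being lost (-0.44, adjusted p = 0.103 by limma). Same-numbered mice of the 2 groups had correlations of deviations from -0.195 to 0.196, with 1 of 6 pairs over 0.1. Mice of different numbers were not compared, so these values cannot tell whether the numbers pair the mice. The cause of these changes was not tested. Of the 27 nearest genes 16 were shared with Spearman's correlation and 8 without those 3 mice. Signal near the floor limits Mttp and Mogat2. Controls not far over the floor also limit the fold values of Apoc2, Cidec, Hilpda and Angptl4, with control medians of 5.09, 4.83, 5.21 and 5.63. How far those fold values and their ranks depend on background signal was not tested.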
